A study of Homo sapiens with 6 samples.

Results

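The interleukin 1 (IL-1) system was read in Cal33 cells as 8 genes taken by symbol from the deposited table of 14136 gene entries: the ligands IL1A, IL1B and IL18, the antagonist IL1RN, the receptor chains IL1R1 and IL1RAP, and the signalling proteins MYD88 and IRAK1. All 8 symbols were found, each on 1 entry. Cal33 is a human cell line established from an oral squamous cell carcinoma. Cells were infected with lentivirus packaged in 293FT cells and selected with puromycin at 0.5 ug/ml, and they carried either the empty pSin-EF2 vector (Vector, 3 libraries) or the same vector with FLAG-tagged CES2 (CES2, 3 libraries). CES2 encodes carboxylesterase 2, a hydrolase of the endoplasmic reticulum. Both groups are thus infected, selected populations, and they differ in the insert. The labels give no separate infections or cultures for the replicates, so p-values measure the spread between these libraries, which may be technical.

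IL-1 alpha (IL1A) and IL-1 beta (IL1B) are the agonists of the pathway, and epithelial cells use IL-1 alpha as an alarm signal released on damage. Both bind the receptor chain IL1R1, which then recruits the accessory chain IL1RAP. The paired cytoplasmic domains gather the adaptor MYD88 and kinases of the IRAK family, and the signal runs on to NF-kappaB and stress kinases. The product of IL1RN occupies IL1R1 without recruiting IL1RAP and so blocks both agonists. IL-18 belongs to the same family, uses its own receptor and, like IL-1 beta, is cut from an inactive precursor by caspase 1.

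The ligand genes IL1A, IL1B and IL1RN lie in 1 cluster on chromosome 2 (GRCh38, as in the deposited table). IL1A spans chr2:112773915-112784590 on the minus strand, IL1B spans chr2:112829751-112836903 on the minus strand and begins 55.8 kb further along, and IL1RN spans chr2:113111116-113134013 on the plus strand, 337.2 kb from the IL1A start coordinate. Of the genes listed between them in the table, IL36G and IL36RN are also family members. IL1R1 is at chr2:102064544-102164953, IL18 at chr11:112143251-112164117, IL1RAP at chr3:190514051-190651519, MYD88 at chr3:38138478-38143019 and IRAK1 at chrX:154010500-154019980. Each entry lists 1 transcript, and for IL1R1 that transcript is 609 bases long with 5 exons, although the longest protein-coding transcript of the gene in GENCODE release 29 is 5143 bases long. The sources do not say whether a value covers the listed transcript or the whole gene, so the level of IL1R1 relative to the other genes is uncertain. The same limit holds for further genes read below with a short listed transcript, such as SIGIRR (573 bases) and CASP1 (821 bases).

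The bases upstream of IL1A and IL1B are shown because these agonist genes had the smallest unadjusted p among the 8. The sequences come from RefSeq (GRCh38.p14), are written 5′ to 3′ on the gene's strand, and end at the last base before the transcript listed in the deposited table (IL1A chr2:112784591-112784743, IL1B chr2:112836904-112837029, both minus strand).
IL1A upstream: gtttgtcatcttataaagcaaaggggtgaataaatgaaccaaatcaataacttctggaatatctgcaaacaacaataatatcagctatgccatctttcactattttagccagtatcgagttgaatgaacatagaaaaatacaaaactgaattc
IL1B upstream: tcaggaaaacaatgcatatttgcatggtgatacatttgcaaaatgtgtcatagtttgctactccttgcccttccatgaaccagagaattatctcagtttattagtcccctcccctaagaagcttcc

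The 250 bases before each RefSeq gene start were searched on both strands for the AP-1 motif TGANTCA and for the NF-kappaB (kappaB) consensus motif. RefSeq gave 13 such windows for 7 of the 8 genes, and IL18 had no window. The kappaB consensus was in 0 of the 13 windows, against 5.2% of 34943 windows of all genes. AP-1 letters were in 3 windows, against 6.59% of all windows. These 3 windows hold 3 distinct matches, since the 2 windows of IL1A overlap, and they are shown with the motif in capitals. Both matches of IL1A (chr2:112784489-112784515 and chr2:112784439-112784465, minus strand) lie in exon 1 of its listed transcript, and that of IL1RN (chr2:113117738-113117764, plus strand) lies in intron 2.
IL1A match nearer the transcript start: cgaagaagacTGACTCAggcttaagct
IL1A match further in: cattggcgttTGAGTCAgcaaaggtat
IL1RN match: tctgctagccTGAGTCAccctcctgga
A match is a description of the letters, and no match says nothing about binding of the factor.

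Abundance is given in TPM, a level per transcript length scaled to the same total in every library. TPM holds no depth, so the sequencing depth is unknown and no counting error can be given. In these bulk libraries, fewer cells that make a transcript and less of it per cell cannot be told apart. The CES2 transcript itself ranged from 41.9 to 45.6 TPM among Vector libraries and from 1929 to 2664 TPM among CES2 libraries. It was the only gene past the threshold (limma, Benjamini-Hochberg adjusted p under 0.05, 12210 genes tested), which is 0.00819% of genes, and 0 genes were lower (0%). An unadjusted p under 0.05 was reached by 133 genes, or 1.09%, a smaller share than the 0.05 expected if no gene differed. A high adjusted p here therefore does not show equal levels. Of the 8 IL-1 genes 2 reached it, IL1A and IL1B, and IL1A entered the test only through the CES2 libraries. All 10 listed squamous epithelial markers were in the table, with a summed level of 4408 to 5914 TPM. Their levels were uneven over the libraries, from KRT5 at 1031 to 2597 TPM down to KRT6A at 14.7 to 70.4 TPM and KRT14 at 1.14 to 2.97 TPM. Of 11 monocyte and macrophage markers, cells known for IL-1 beta, 6 were not listed, including PTPRC. The other 5 summed to 7.15 to 12.5 TPM in Vector and 6.20 to 9.10 TPM in CES2, of which CD68 gave 5.52 to 11.6 and 5.47 to 8.27 TPM, and CD14 was at most 0.695 TPM. None of 7 lymphocyte markers and 1 of 8 fibroblast markers (COL1A1, 3.89 to 10.5 TPM) was listed. Among 5 endothelial markers 4 were listed, mostly as CDH5, which was at 8.25 to 25.3 TPM in Vector and 8.75 to 19.6 TPM in CES2.

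None of the 8 IL-1 genes passed the threshold (limma adjusted p = 0.9998 for each), and all 8 had entered the test. Two-sided exact permutation tests of the TPM values gave p = 0.1 for IL1A, the smallest that 3 against 3 allows, and 0.2 to 1.0 for the others. For IL1A the filter fixed that p, since only the CES2 libraries let this gene enter the test. The agonists IL1A and IL1B had the highest CES2 values relative to Vector, and IL1RN the lowest. For IL1R1, IL1RAP, MYD88 and IRAK1 the log2 differences ran from -0.21 to 0.12. Their 95% intervals all held 0, the widest for IL1R1 (-1.33 to 0.90) and the narrowest for MYD88 (-0.63 to 0.40). In Vector the order of mean levels was IRAK1 (205 TPM), IL18 (81.3), IL1RAP (52.0), MYD88 (13.0), IL1RN (8.91), IL1B (5.06), IL1R1 (2.38) and IL1A (0.495). Libraries of neighbours in that order overlapped between IL1RN and IL1B, between IL1B and IL1R1 and between IL1R1 and IL1A. In CES2 the first 4 places were the same, followed by IL1B (10.0 TPM), IL1RN (5.70), IL1A (1.98) and IL1R1 (1.76). There the libraries of IL18 and IL1RAP, MYD88 and IL1B, IL1B and IL1RN, and IL1A and IL1R1 overlapped.

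**Figure D1:**
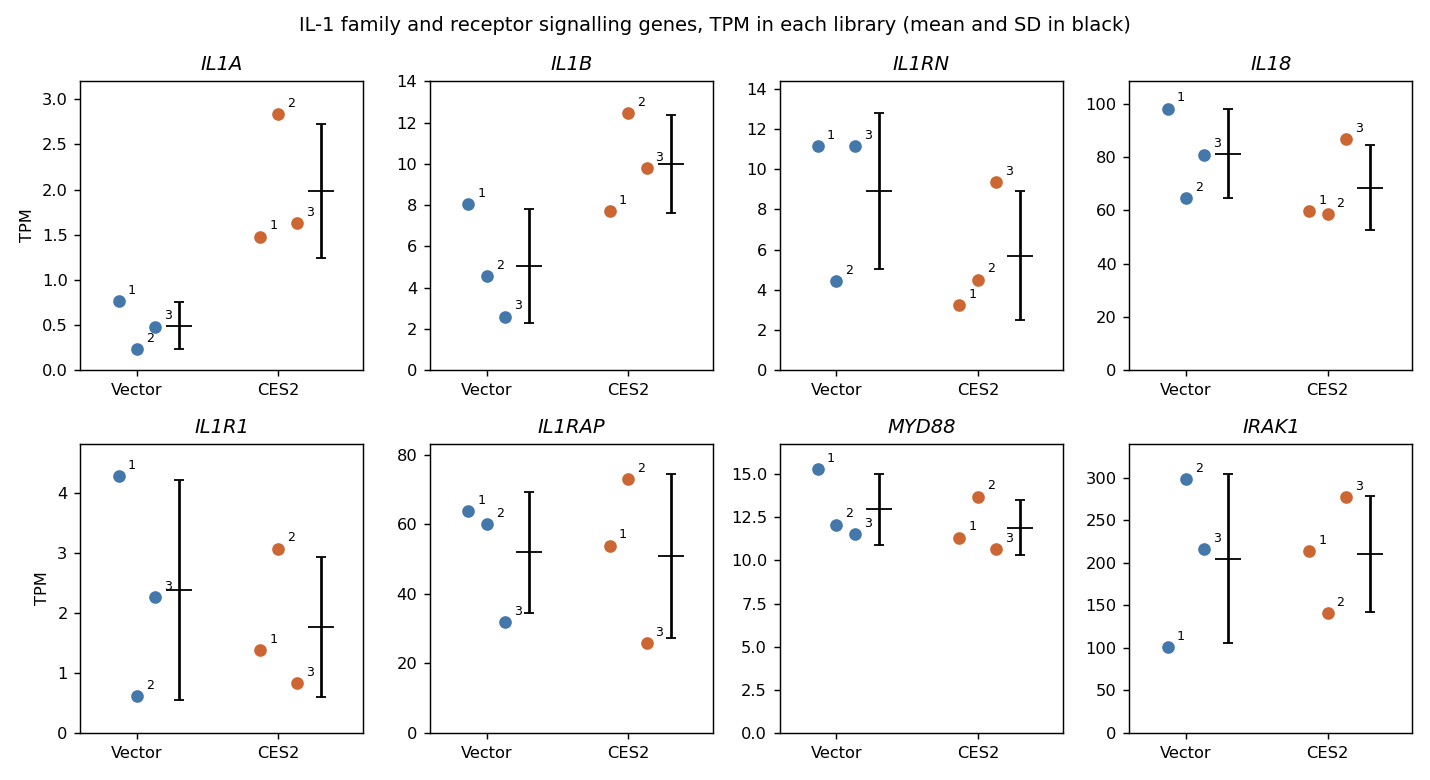
TPM (vertical axes, linear and starting at 0, a separate scale per gene) of the 8 genes in each Vector (blue) and CES2 (orange) library, numbered by replicate, with the group mean and SD (n = 3) in black. The groups are separate for IL1A and overlap for the other 7 genes.

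IL1A, the alarm cytokine, was the least abundant of the 8 genes in Vector, at 0.764, 0.238 and 0.483 TPM. In the CES2 libraries it was at 1.48, 2.83 and 1.63 TPM. Every CES2 library lay above every Vector library, and CES2 2 was the highest. Groups were separate in this direction in 1.07% of the genes tested. The means were 0.495 ± 0.263 and 1.98 ± 0.743 TPM (SD, n = 3 each), a 4.0-fold ratio of means. The difference was 0.98 on the log2(TPM + 1) scale, with a standard error of 0.31, a 95% interval of 0.27 to 1.70 and an unadjusted p of 0.0131 (limma, adjusted p = 0.9998). IL1A entered the test only through the CES2 group, since a gene needed 1 TPM in 3 libraries and no Vector library reached it, so a gene of this kind had to differ. A value below 1 TPM is also strongly compressed by the added 1: with 0.1 added the log2 difference was 1.85 and with 0.01 it was 2.07, still without passing.

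IL1B encodes the secreted agonist. The Vector libraries held 8.04, 4.54 and 2.60 TPM of it, and the CES2 libraries 7.71, 12.5 and 9.81 TPM. Vector 1 lay just above CES2 1, so the groups overlapped, while the other Vector libraries lay below all CES2 libraries. The means were 5.06 ± 2.76 and 10.0 ± 2.38 TPM (SD, n = 3 each). The log2 difference was 0.94 with a standard error of 0.36 and a 95% interval of 0.11 to 1.77 (limma, unadjusted p = 0.0316, adjusted p = 0.9998). Without Vector 3, its lowest library, that difference was 0.61. IL1B exceeded IL1A in every library, at 5.39 to 19.1 times its level among Vector libraries and 4.40 to 6.01 times among CES2 libraries.

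IL1RN, the receptor antagonist gene, had Vector values of 11.2, 4.41 and 11.2 TPM and CES2 values of 3.25, 4.51 and 9.34 TPM. Vector 2 lay among the low CES2 libraries and CES2 3 near the high Vector libraries. The log2 difference was -0.58 with a standard error of 0.43 and a 95% interval of -1.57 to 0.42 (limma, adjusted p = 0.9998). Its size depended on single libraries: it was -0.30 without CES2 1, -0.38 without Vector 1 or without Vector 3, -0.94 without CES2 3 and -0.96 without Vector 2.

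IL1A and IL1B summed to 8.80, 4.78 and 3.08 TPM for the Vector libraries and to 9.19, 15.3 and 11.4 TPM for the CES2 libraries. The means were 5.56 ± 2.94 and 12.0 ± 3.09 TPM (SD, n = 3 each). The ratio of IL1RN to that sum was 1.27, 0.923 and 3.62 for Vector and 0.353, 0.295 and 0.817 for CES2. The antagonist transcript was thus below the agonists in all 3 CES2 libraries and in Vector 2, and above them in Vector 1 and Vector 3. The mean ratio was 1.94 ± 1.46 for Vector, against 0.488 ± 0.286 for CES2 (SD, n = 3 each). The ratio is a description with no test, since the genes were chosen with their values known, and Vector 3 alone carried much of the Vector mean, which was 1.10 without it. How often ratios of other genes separate between the groups was not counted. The sum also includes IL1A, which entered the test only through the CES2 libraries, so part of the gap was built in. Against IL1B alone, IL1RN was just below it both in Vector 2 (4.41 and 4.54 TPM) and in CES2 3 (9.34 and 9.81 TPM).

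**Figure D2:**
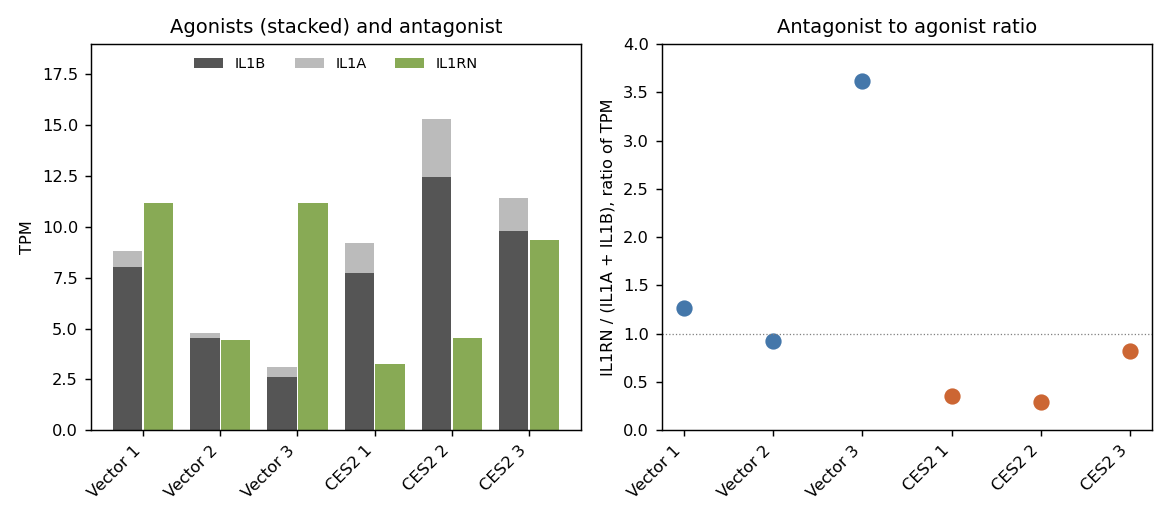
Left, TPM of IL1B and IL1A (stacked bars) beside IL1RN in each library. Right, the ratio of IL1RN to the summed agonists per library, with a dotted line at 1. The 3 CES2 libraries lie between 0.295 and 0.817, below the Vector libraries at 0.923 to 3.62. The ratio was not tested, and its sum includes IL1A, which entered the test only through the CES2 libraries.

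IL18 was the most abundant ligand, with 98.3, 64.7 and 81.0 TPM among Vector libraries against 59.9, 58.7 and 86.9 TPM among CES2 libraries. The groups overlapped, with CES2 3 above 2 of the Vector libraries. The log2 difference was -0.25 with a standard error of 0.24 and a 95% interval of -0.79 to 0.29 (limma, adjusted p = 0.9998). It was -0.10 without Vector 1 and -0.43 without CES2 3. IL18 stood at 7.77, 4.71 and 8.87 times IL1B in CES2 and at 12.2, 14.2 and 31.1 times in Vector. These ratios did not overlap between the groups, while each of the genes alone did. The genes were chosen with their values known, and how often ratios of other genes separate was not counted. The ratios too were not tested, and they share IL1B with the ratio of IL1RN to the agonists.

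IL1R1, the signalling receptor chain, gave 4.28, 0.611 and 2.26 TPM for Vector against 1.38, 3.07 and 0.836 TPM for CES2. The libraries spread over 7.0-fold within Vector alone, the widest of the 8 genes. Its log2 difference was -0.21 with a 95% interval of -1.33 to 0.90 (limma, adjusted p = 0.9998). IL1RAP, the accessory chain shared with other receptors of the family, gave 63.9, 60.1 and 31.9 TPM for Vector against 53.9, 73.0 and 25.9 TPM for CES2. The third library was the lowest in each group, and the groups overlapped throughout. Its log2 difference was -0.09 with a 95% interval of -1.02 to 0.85 (limma, adjusted p = 0.9998). IL1RAP exceeded IL1R1 by 14.1 to 98.4 times, a comparison that holds only as far as the IL1R1 values cover the gene.

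MYD88, the adaptor, was the steadiest of the 8 within groups, with Vector values of 15.3, 12.1 and 11.5 TPM and CES2 values of 11.3, 13.7 and 10.7 TPM. Its log2 difference was -0.11 with a standard error of 0.22 and a 95% interval of -0.63 to 0.40 (limma, adjusted p = 0.9998). IRAK1, the kinase that MYD88 recruits, was the most abundant of the 8. Its Vector values were 101, 299 and 216 TPM and its CES2 values 214, 141 and 277 TPM. Vector held both the lowest and the highest library, so the groups overlapped entirely. Its log2 difference was 0.12 with a 95% interval of -0.81 to 1.05 (limma, adjusted p = 0.9998).

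The sign of the receptor and adaptor genes was not stable when single libraries were left out. Without Vector 1 the log2 difference was 0.19 for IL1R1, 0.09 for IL1RAP, 0.004 for MYD88 and -0.32 for IRAK1. Without CES2 3 it was 0.04 for IL1R1, 0.33 for IL1RAP and -0.11 for IRAK1, and without Vector 2 it was 0.05 for IL1RAP.

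**Figure D3:**
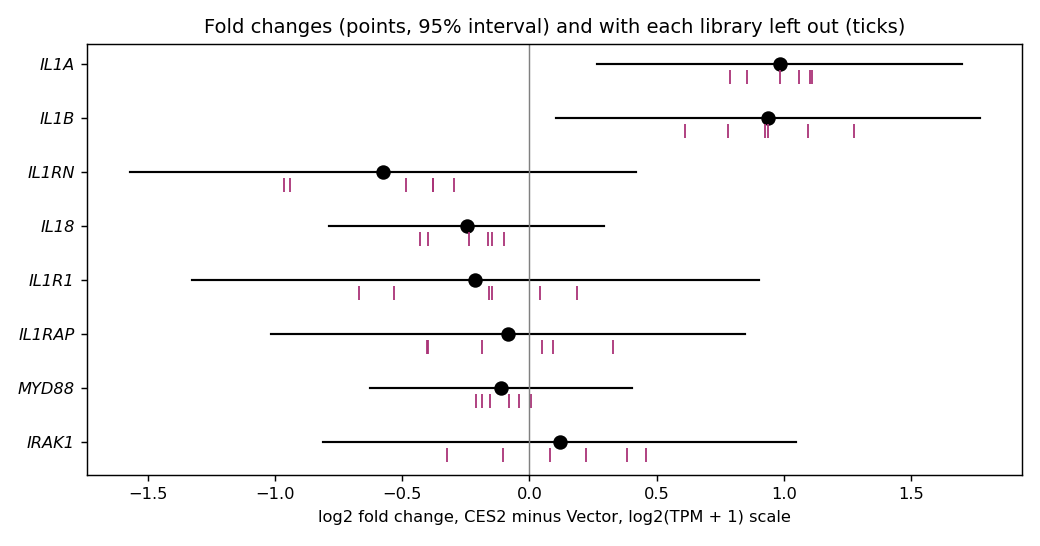
Log2 difference of CES2 minus Vector on the log2(TPM + 1) scale (horizontal axis) for the 8 genes, as points with 95% intervals from limma, and as ticks with each of the 6 libraries left out. Ticks stay on 1 side of 0 for IL1A, IL1B, IL1RN and IL18 and lie on both sides for the other 4 genes.

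The spread of IRAK1 within groups followed an order shared by many genes. After the group means were removed, the first principal component of all tested genes held 59.5% of the remaining variance. The scores were 0.52 for Vector 1, 0.49 for CES2 2, 0.08 for CES2 1, -0.13 for Vector 3, -0.39 for Vector 2 and -0.57 for CES2 3. IRAK1 was lowest in the 2 libraries with the highest scores (101 and 141 TPM) and highest in the 2 with the lowest (299 and 277 TPM). IL1R1 had the opposite order at both ends, with 4.28 and 3.07 TPM in Vector 1 and CES2 2 against 0.611 and 0.836 TPM in Vector 2 and CES2 3. Without Vector 1 and CES2 2 the log2 difference was -0.06 for IRAK1, 0.91 for IL1A and 1.12 for IL1B, while those of IL1RN and IL18 shrank to -0.29 and -0.004 (limma, none past the threshold). The part of this component in the differences was not tested further.

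**Figure D4:**
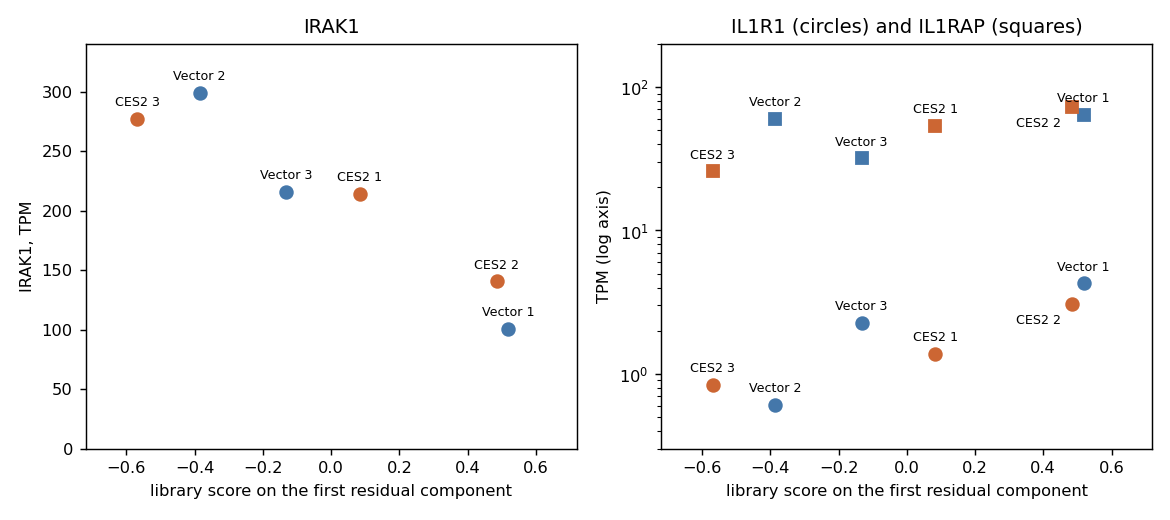
TPM of IRAK1 (left, linear axis) and of IL1R1 (circles) and IL1RAP (squares, right, log axis) against each library's score on the first residual component, with Vector in blue and CES2 in orange. IRAK1 is lowest, at 101 and 141 TPM, where the scores are highest.

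The 5 genes whose profile over the 6 libraries was most like that of IL1A, by the root mean square difference of centred log2(TPM + 1), were IL32 (0.16), BDKRB2 (0.231), DTX2 (0.234), ARHGAP26 (0.236) and RELB (0.238). IL32 encodes a cytokine, BDKRB2 a bradykinin receptor and RELB an NF-kappaB subunit. IL32 was itself at 0.789 and 0.395 TPM in Vector 1 and Vector 3, blank in Vector 2 and read as 0 there, and at 1.42 to 1.88 TPM in CES2. Like IL1A, it thus entered the test only through the CES2 libraries, so the filter fixed part of this likeness. For IL1B the nearest were GFPT2 (0.23), IRAK2 (0.254), MRPL49 (0.255), BDKRB2 (0.258) and NFKBIA (0.287). IRAK2 encodes the second IRAK kinase of the receptor complex, and NFKBIA the inhibitor of NF-kappaB that its own target genes include. IL1A and IL1B differed from each other by 0.34, which placed IL1A as the 12th nearest gene of IL1B and IL1B as the 44th of IL1A. For IL1RN they were KLK8 (0.156), IGFBP5 (0.165), FGD3 (0.209), PLAC8 (0.259) and NAV1 (0.265). IL18 was the 74th nearest gene of IL1RN, at 0.37, whereas IL1A and IL1B were at 0.938 and 0.999, further than the 0.616 that IL1RN varied about its own mean. None of these 14 neighbours passed the threshold.

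Many other ligands and receptors of the family were not listed or stayed below 1 TPM, but IL33, IL18BP and SIGIRR were expressed. Of 7 further ligands, IL36A, IL36B, IL37 and IL1F10 were not listed, and only IL33, an alarm cytokine of the nucleus, entered the test. IL33 varied from 2.14 to 18.1 TPM in Vector and from 0.701 to 14.7 TPM in CES2, a log2 difference of -0.12 ± 0.89 (SE; limma, adjusted p = 0.9998). Within the chromosome 2 cluster, IL36G was blank in Vector 2 and gave 0.397 TPM for Vector 1 and 0.0578 TPM for Vector 3, against 0.878, 0.413 and 0.699 TPM for CES2. The antagonist gene IL36RN gave 0.369, 0.376 and 0.858 TPM for Vector against 0.233, 0.420 and 0.422 TPM for CES2. Neither reached 1 TPM in any library. Of 9 further receptors and decoys, 6 were not listed, among them IL1R2, the decoy receptor for IL-1, and IL1RL1, the receptor for IL-33. SIGIRR, an inhibitory receptor, was at 57.8 to 100.4 TPM in Vector and 66.5 to 95.3 TPM in CES2 (log2 difference -0.06), and IL18BP, which binds IL-18, was at 6.80 to 11.6 and 6.26 to 9.99 TPM (log2 difference -0.11). IL18R1, the receptor for IL-18, was at 0.259 to 0.824 TPM over all libraries and was not tested.

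Genes of ligand processing were mostly present and overlapped between groups. Of 17 inflammasome and processing genes, 13 were listed and 11 tested, with 0 past the threshold, 1 above 0 and 10 below 0. Their median log2 difference was -0.10, against -0.06 over all tested genes, of which 36.3% were above 0. CASP1, the protease that matures IL-1 beta and IL-18, ranged from 60.5 to 78.4 TPM among Vector libraries and from 44.4 to 74.5 TPM among CES2 libraries. Its inflammasome adaptor PYCARD was at 23.8 to 64.5 and 30.1 to 53.2 TPM, and NLRP3 was not listed. The smallest unadjusted p values in the list belonged to AIM2, a DNA sensor (log2 difference -0.48), CARD8 (-0.25) and CAPN2, a calpain subunit (-0.14). Their size depended on single libraries: AIM2 was at -0.25 without CES2 2, CARD8 at -0.15 without CES2 3, and CAPN2 at -0.04 without Vector 3 and -0.23 without CES2 3. CASP1 and PYCARD were chosen for their role after their values were seen.

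Signalling below the receptor was listed for 23 of 24 genes, all tested, with 0 past the threshold, 7 above 0 and 16 below 0 and a median log2 difference of -0.12. Over all tested genes 36.3% were above 0 and the median was -0.06, so most genes lay below 0 in any case. IRAK2, the kinase that joins IRAK1 in the complex, had Vector values of 21.1, 15.1 and 10.5 TPM and CES2 values of 31.7, 33.3 and 23.0 TPM. Every CES2 library lay above every Vector library, a separation found in 1.07% of tested genes. The log2 difference was 0.90 with a standard error of 0.29 (limma, unadjusted p = 0.0127, adjusted p = 0.9998). PELI3, a ubiquitin ligase that acts on IRAK proteins, had Vector values of 19.2, 15.6 and 26.1 TPM and CES2 values of 14.3, 14.9 and 12.3 TPM. Its CES2 libraries lay below all Vector libraries, a separation found in 2.63% of tested genes (log2 difference -0.50, or -0.31 without Vector 3; limma adjusted p = 0.9998). MAPK14, the stress kinase p38 alpha, was at 58.0 to 86.1 and 27.9 to 75.0 TPM, and the groups overlapped (log2 difference -0.63, but -1.0 without CES2 1 and -0.30 without CES2 3).

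Genes known to be induced by IL-1 in epithelium had the highest median difference of the lists. Of 30 listed, 21 were tested, and 0 passed over all genes, although 3 did with library weights. All 21 had log2 differences above 0, from 0.22 to 3.39 with a median of 1.34, where 36.3% of all tested genes were above 0. Groups were separate for 11 of the 21, against 1.07% of all tested genes. IRAK2, given above for signalling below the receptor, is also in this list and among the 11. No tested gene of the list entered only through the CES2 libraries. These targets also answer to other signals that use NF-kappaB, several of them are known from earlier results of these data, and their count is not independent evidence of a direction. The smallest unadjusted p values of the list belonged to the chemokine genes CCL2, CXCL3 and CXCL1, with log2 differences of 2.74, 2.39 and 1.52. Their limma adjusted p values were 0.451, 0.738 and 0.738, and with libraries weighted by their fit these 3 genes passed, at 0.0202, 0.0283 and 0.0301. That weighted fit rested mostly on CES2 1 for its group, with a weight of 6.86 against 0.513 to 1.12 for the other libraries. In the other alternatives the adjusted p ran from 0.0672 to 0.99997 for CCL2, from 0.118 to 1.0 for CXCL3 and from 0.185 to 1.0 for CXCL1. Over all 26 genes read, the mean TPM was higher in CES2 for 25. Of the 5 among them that were not tested, CSF3 was at most 0.196 TPM in Vector and at 0.578 to 1.44 TPM in CES2, ICAM1 was at 0.594 to 1.25 TPM in Vector and 0.224 to 0.570 TPM in CES2, and IL6 was at or below 0.562 TPM in every library. SOD2 stood on more than 1 entry and was left out, and CSF2, DEFB4A and MMP3 were not listed. Relative to each gene's mean, the median of the list was -0.08, -0.56 and -1.06 for Vector and 0.95, 1.05 and 0.11 for CES2 on the log2 scale, so that Vector 1 and CES2 3 were close. Vector 1 was likewise the Vector library with the most IL1A and IL1B, but CES2 3 held more IL1B than CES2 1.

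**Figure D5:**
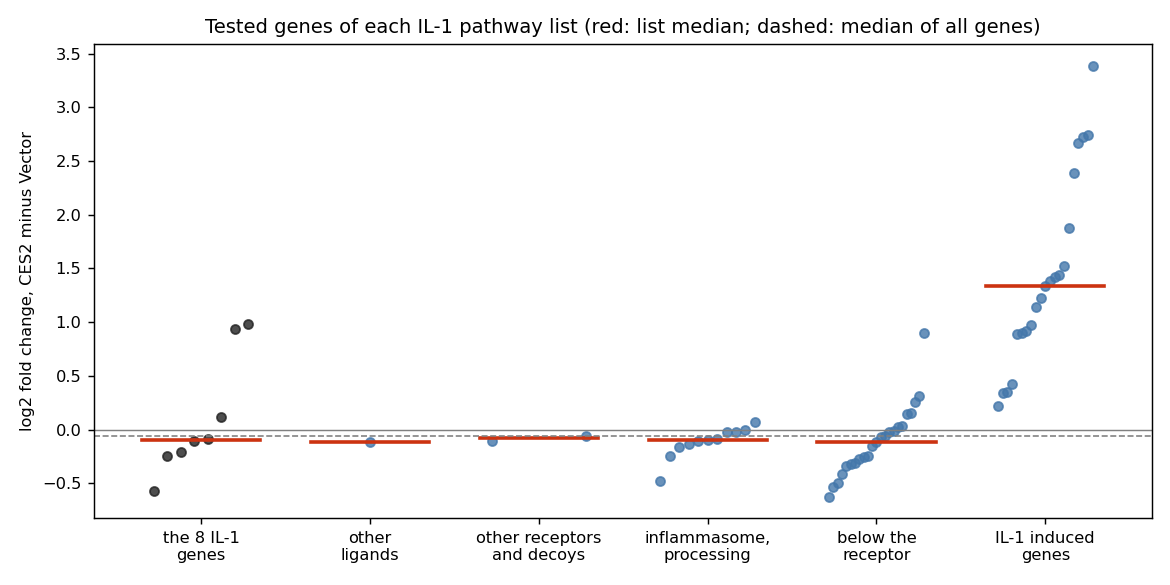
Log2 difference of CES2 minus Vector (vertical axis) for each tested gene of the 8 IL-1 genes (black) and of 5 other lists of the pathway (blue), with list medians in red and the median of all tested genes (-0.06) dashed. The genes induced by IL-1 lie between 0.22 and 3.39, while the other lists centre near the dashed line.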

How the data were processed

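RNA of 6 Cal33 libraries (3 Vector, 3 CES2) was depleted of ribosomal RNA and made into strand-specific libraries, per the labels' protocols. The authors deposited 1 table of TPM values, and this unit was inferred from column sums of 999804 to 999893, since the header names none. HISAT2 2.1.0, StringTie 1.3.3, edgeR 3.0.8 and GRCh38 are named, per the submitters' processing notes, without a role; the annotation, filters and strand setting remain unknown, being not given in the sources used here. Scaling to a fixed total means that abundant transcripts shift all others.

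Blanks (607 entries in at least 1 library) were read as 0, and 20 symbols turned into dates were restored from identifiers. The 12210 genes that reached 1 TPM in 3 or more libraries were compared as log2(TPM + 1) with an intensity trend by limma 3.58.1 (R 4.3.3), group as the only term, and Benjamini-Hochberg adjustment over all genes. The fit was tested on simulated data with errors independent between genes and with larger changes than those of the 8 genes. That check therefore does not bear on differences of their size. Fold changes understate low genes. Python 3.11.15, scipy 1.17.1 and matplotlib 3.10.9 served for exact permutation tests and plots. The 8 genes and the lists were chosen with earlier results of these data known. Named genes were the 8, CES2, up to 3 per list with the smallest p and the 5 nearest profiles of IL1A, IL1B and IL1RN; others are named for their role or as exceptions, after their values were seen. Alternatives left out each library and changed scaling, filter, pseudocount, model, threshold and blanks.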

Additional observations from a re-analysis of the deposited data

How the results depend on the processing

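None of the 8 genes passed the threshold in any of the alternatives run, with adjusted p from 0.784 to 1.0. IL1A was above 0 in 17 of 17 alternatives (0.79 to 2.07), IL1B in 18 of 18 (0.61 to 1.28), and IL1RN (-1.13 to -0.29) and IL18 (-0.43 to -0.004) were below 0 in 18 of 18. The replicate block and changes of filter, intensity trend, threshold and blanks leave the estimate itself unchanged, so these counts partly repeat the main fit. For IL1A every CES2 library lay above every Vector library, so leaving out libraries or changing the pseudocount could not turn its sign. With each library left out in turn, the log2 difference ranged from -0.67 to 0.19 for IL1R1, -0.40 to 0.33 for IL1RAP, -0.21 to 0.0045 for MYD88, -0.32 to 0.46 for IRAK1, -0.81 to 0.79 for IL33, -0.27 to 0.090 for IL18BP and -0.29 to 0.10 for SIGIRR, and the number of genes lower over all genes from 0 to 1 (RTEL1-TNFRSF6B without CES2 3). With library weights, where CES2 1 had a weight of 6.86, 4 genes were higher, CES2 and the IL-1-induced CXCL3, CXCL1 and CCL2, and signs turned for IL1RAP (0.23), IL33 (0.48) and MAPK14 (0.0033). Without Vector 1 and CES2 2, chosen after seeing the data, 2 genes were higher (CES2 and S100A8) and signs turned for IRAK1 (-0.061) and KLK8 (0.016). SIGIRR was at 0.0037 after median rescaling. The causes were not tested. A mean of at least 5 TPM removed IL1A and IL1R1, so these had no value there. Same-numbered libraries did not deviate together (correlations 0.145, -0.524 and 0.375), and Vector 1 correlated most with CES2 2 (0.682). The replicate number as a block left 1 gene higher and 0 of the 8 past the threshold. The block cannot move the log2 difference (0.98 for IL1A), since each group holds every replicate number. TPM keeps no depth, so the precision of IL1A below 1 TPM cannot be stated.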
